A study of Homo sapiens with 12 samples.

Results

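The genes described here were the central complement component C3, the alternative pathway genes CFB, CFD and CFI, the classical pathway proteases C1R and C1S with their inhibitor SERPING1, and the membrane regulators CD55 and CD59. These 9 genes were chosen by name out of 57500 genes in a table of raw read counts, and each symbol stood in 1 row of that table. The choice was made with earlier results of these data known. Counts and medians of members set beside those of all tested genes therefore describe the list and do not test it. Of the 9, 8 were among the 16251 genes that passed the filter on low counts and were tested. CFI did not pass, and CFD passed only through the group in which it was highest. RNA was sequenced from MRC5 cells, a strain of human fetal lung fibroblasts, in 12 libraries that fall into 4 groups of 3. The groups were proliferating cells (Prol), cells driven into senescence with X-rays at 20 Gy (Sen(IR)), and cells irradiated and then given either UK5099, a blocker of the mitochondrial pyruvate carrier, at 100 µM (labelled Sen(IR+UK5099), here Sen(IR)+UK5099), or CTPI2, a blocker of the mitochondrial citrate carrier SLC25A1 (labelled Sen(IR+CTPI2), here Sen(IR)+CTPI2). CTPI2 was used at 15 or 30 µM in the study, and the sources do not say which dose was sequenced. Inhibitors were added 1 day after irradiation and cells were collected at day 10 to 12. All 4 groups are of the same cell strain. The labels do not say whether the 3 libraries of a group came from separate cultures. The study's figure legends give 3 independent experiments for its CTPI2 heatmaps and 3 independent conditions for RNA sequencing with UK5099. The p-values measure only the spread between these libraries.

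Complement is a cascade of proteases and binding proteins that marks and lyses targets. In the classical pathway C1r activates C1s, which cleaves C4 and C2, and in the alternative pathway factor B bound to C3b is cleaved by factor D. Both routes form convertases that cleave C3, and host cells are protected by C1 inhibitor in plasma, by factor I, which cleaves C3b, and by CD55 and CD59 on the membrane. The liver makes most plasma complement, and fibroblasts are also known to make C1r, C1s and C3.

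The sequence before CFB, which was called in Sen(IR) against Prol and with UK5099 against Sen(IR), is shown first, beside those of C1R, CFD and CD55, which were called in neither of these comparisons. RefSeq windows (GRCh38.p14, 250 bases before and 50 after a start) matched 6 of the 9 members with 10 windows. C3, C1S and SERPING1 had no entry. Only the 250 bases before each start are printed, 5′ to 3′ on the gene's strand. The printed CFB stretch is chr6:31945845-31946094 (plus strand), those of C1R are chr12:7092446-7092695 and chr12:7091894-7092143 (minus strand), that of CFD is chr19:859414-859663 (plus strand) and that of CD55 is chr1:207321428-207321677 (plus strand). In GENCODE v44 all 4 of these genes begin inside or before the printed stretch, with transcripts that start upstream of the RefSeq start. Capitals mark matches, on either strand, to 6 motifs: kappaB, GAS (TTCNNNGAA), ISRE (GAAANNGAA), C/EBP (TTGCNNAA), AP-1 (TGANTCA) and the TATA box (TATAAA).
CFB: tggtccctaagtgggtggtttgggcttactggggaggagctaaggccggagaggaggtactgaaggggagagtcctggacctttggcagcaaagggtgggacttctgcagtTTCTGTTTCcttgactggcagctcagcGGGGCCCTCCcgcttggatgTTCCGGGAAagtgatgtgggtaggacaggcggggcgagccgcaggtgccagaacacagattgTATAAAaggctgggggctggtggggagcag
C1R first start: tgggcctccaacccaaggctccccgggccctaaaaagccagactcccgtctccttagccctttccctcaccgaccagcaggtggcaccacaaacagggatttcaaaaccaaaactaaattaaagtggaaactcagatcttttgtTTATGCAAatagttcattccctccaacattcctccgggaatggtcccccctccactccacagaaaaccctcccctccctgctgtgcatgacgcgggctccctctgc
C1R second start: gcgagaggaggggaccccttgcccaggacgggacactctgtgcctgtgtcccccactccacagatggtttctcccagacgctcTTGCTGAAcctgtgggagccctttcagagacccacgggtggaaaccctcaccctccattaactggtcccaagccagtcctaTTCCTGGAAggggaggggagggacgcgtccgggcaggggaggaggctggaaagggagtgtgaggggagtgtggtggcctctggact
CFD: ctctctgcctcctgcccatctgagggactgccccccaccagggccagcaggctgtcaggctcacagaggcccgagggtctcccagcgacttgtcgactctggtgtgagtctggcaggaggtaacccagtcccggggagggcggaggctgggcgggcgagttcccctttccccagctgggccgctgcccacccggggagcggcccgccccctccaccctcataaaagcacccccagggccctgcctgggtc
CD55: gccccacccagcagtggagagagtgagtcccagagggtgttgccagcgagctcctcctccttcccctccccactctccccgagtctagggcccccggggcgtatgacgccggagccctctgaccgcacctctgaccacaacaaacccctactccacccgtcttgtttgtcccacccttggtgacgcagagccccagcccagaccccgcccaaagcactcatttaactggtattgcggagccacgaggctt

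The CFB stretch held matches to 4 of the 6 motifs and no 2 of them overlapped. The share of all windows with matches to 4 of the 6 motifs was not counted, only that of each motif alone. From its 5′ end these were the ISRE match TTCTGTTTC (the motif on the other strand) at -139 from the start, the kappaB match GGGGCCCTCC at -112, the GAS match TTCCGGGAA at -92 and the TATA box at -30. Of all 35116 RefSeq windows of 300 bases, a kappaB match stood in 11.3%, a GAS match in 7.66%, an ISRE match in 8.11%, a C/EBP match in 10.5%, an AP-1 match in 7.71% and a TATA box in 11.5%. The first C1R start had a C/EBP match (TTATGCAA, on the other strand) and the second a C/EBP match (TTGCTGAA) and a GAS match (TTCCTGGAA). The 4 windows of CD59 held GAS, C/EBP or AP-1 matches, and none of the 6 motifs was found in the windows of CFD, CD55 or CFI. These matches are letters in a window and do not show that a factor was bound.

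Libraries held between 20597736 and 28245693 counts. Prol and Sen(IR) cells carried the labelled state: CDKN1A, the p21 cell cycle inhibitor, had a mean of 315 CPM (counts scaled for sequencing depth, here with TMM-scaled library sizes) in Prol and 1055 CPM in Sen(IR), MKI67, a proliferation marker, had 235 and 11 CPM, and LMNB1, a nuclear lamin gene, had 169 and 8.24 CPM. Under UK5099 CDKN1A, MKI67 and LMNB1 had 1098, 0.950 and 2.51 CPM, and under CTPI2 1089, 12.5 and 7.45 CPM. MKI67 and LMNB1 were lower with UK5099 than in Sen(IR), by log2 fold changes of -3.54 (edgeR adjusted p = 3.38e-12) and -1.7 (edgeR adjusted p = 6.01e-11). The senescence-associated cytokine genes IL6 and CXCL8 had means of 2.73 and 3.78 CPM in Prol, 113 and 539 in Sen(IR), 1.17 and 1.85 under UK5099 and 61.4 and 255 under CTPI2. The summed level of 7 fibroblast markers was 20460 to 24130 CPM in Prol, 19500 to 20060 in Sen(IR), 10160 to 10650 in Sen(IR)+UK5099 and 17080 to 18850 in Sen(IR)+CTPI2. The lower sum with UK5099 lay mainly in collagen genes. COL1A1 was 4642 to 4820 CPM in Sen(IR) and 1504 to 1719 with UK5099. COL1A2 was 7215 to 7442 and 3307 to 3737, and COL3A1 2722 to 2797 and 797 to 849. THY1 and VIM were lower too, while PDGFRB (155 to 160 and 152 to 167) and DCN (1321 to 1421 and 1244 to 1434) overlapped. Markers of hepatocytes, the main source of plasma complement, were near 0, with a sum over 5 markers of at most 0.474 CPM in any library. The sum over 6 macrophage markers was 1.16 to 1.66 CPM in Prol, 5.10 to 5.78 in Sen(IR), 4.22 to 4.67 in Sen(IR)+UK5099 and 5.5 to 7.14 in Sen(IR)+CTPI2, and it rose mainly through CD14, which went from 0.149 to 0.256 CPM in Prol to 2.89 to 3.65 in Sen(IR). The pan-leukocyte gene PTPRC stayed at or below 0.31 CPM in all 12 libraries, and CD163 and LYZ at or below 0.351 CPM. The sum over 4 epithelial markers was 1.08 to 2.23 CPM across all libraries, and that over 4 endothelial markers was 3.64 to 6.23 CPM in Prol and 0.736 to 2.72 CPM in the irradiated groups, with CDH5 at or below 3 counts in Prol, Sen(IR) and Sen(IR)+UK5099. The lower endothelial sum lay in KDR, at 3.38 to 5.67 CPM in Prol and 0.664 to 1.20 in Sen(IR). VWF was 0.171 to 0.515 CPM in Prol and 0.311 to 0.759 in Sen(IR). PECAM1 was at most 0.0429 CPM in Prol and 0.343 in Sen(IR). The part of these marker changes in the results below was not tested, and in bulk libraries fewer cells of a type and less RNA per cell cannot be told apart.

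The comparison of Sen(IR) with Prol asks which complement genes differ between irradiated senescent and proliferating fibroblasts. C3 rose from 28 to 50 reads per library to the level of an abundant transcript, CFB rose from 8 to 12 reads to 68 to 99, and C1S rose 2.48-fold from an already high level, while for C1R, its partner protease, no difference was detected. A gene was called where edgeR's quasi-likelihood test gave a Benjamini-Hochberg adjusted p under 0.05 and the log2 fold change was over 0.5 in size. By this rule 3 of the 8 tested members were higher in Sen(IR) (C3, CFB and C1S), beside 24.8% of all tested genes, and 0 were lower, beside 22.4% of all tested genes. The count at an unadjusted p under 0.05 was 4, the added gene being SERPING1, and DESeq2 called the same 3 genes. The median log2 fold change over the 8 tested members was 0.30, beside 0.014 over all tested genes.

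The comparison of Sen(IR)+UK5099 with Sen(IR) asks how blocking pyruvate entry into mitochondria alters the senescent pattern. C3, CFB and C1S, the members that were higher in Sen(IR), were the members called lower with UK5099. These 3 of 8 stood beside 12.1% of all tested genes called lower, and 0 members were called higher, beside 8.76% of all tested genes. The median log2 fold change over the members was -0.41, beside 0.0099 over all tested genes. C1R and CD55 also passed the adjusted p but fell short of the limit on fold change. Both comparisons use the same Sen(IR) libraries, so their values are not independent of each other.

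C3 was the 1 member of 8 called lower in Sen(IR)+CTPI2 than in Sen(IR), beside 0.148% of all tested genes (24 genes), and 0 were called higher, beside 0.0185% (3 genes). DESeq2 called C3 alone too, and no further member had an unadjusted p under 0.05. The estimate for CFD, on 2 to 9 reads per library, was larger in size but imprecise, at -0.75 on the log2 scale (± 2 SE from -2.13 to 0.63). The median log2 fold change over the members was -0.034, beside 0.0032 over all tested genes.

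**Figure D1:**
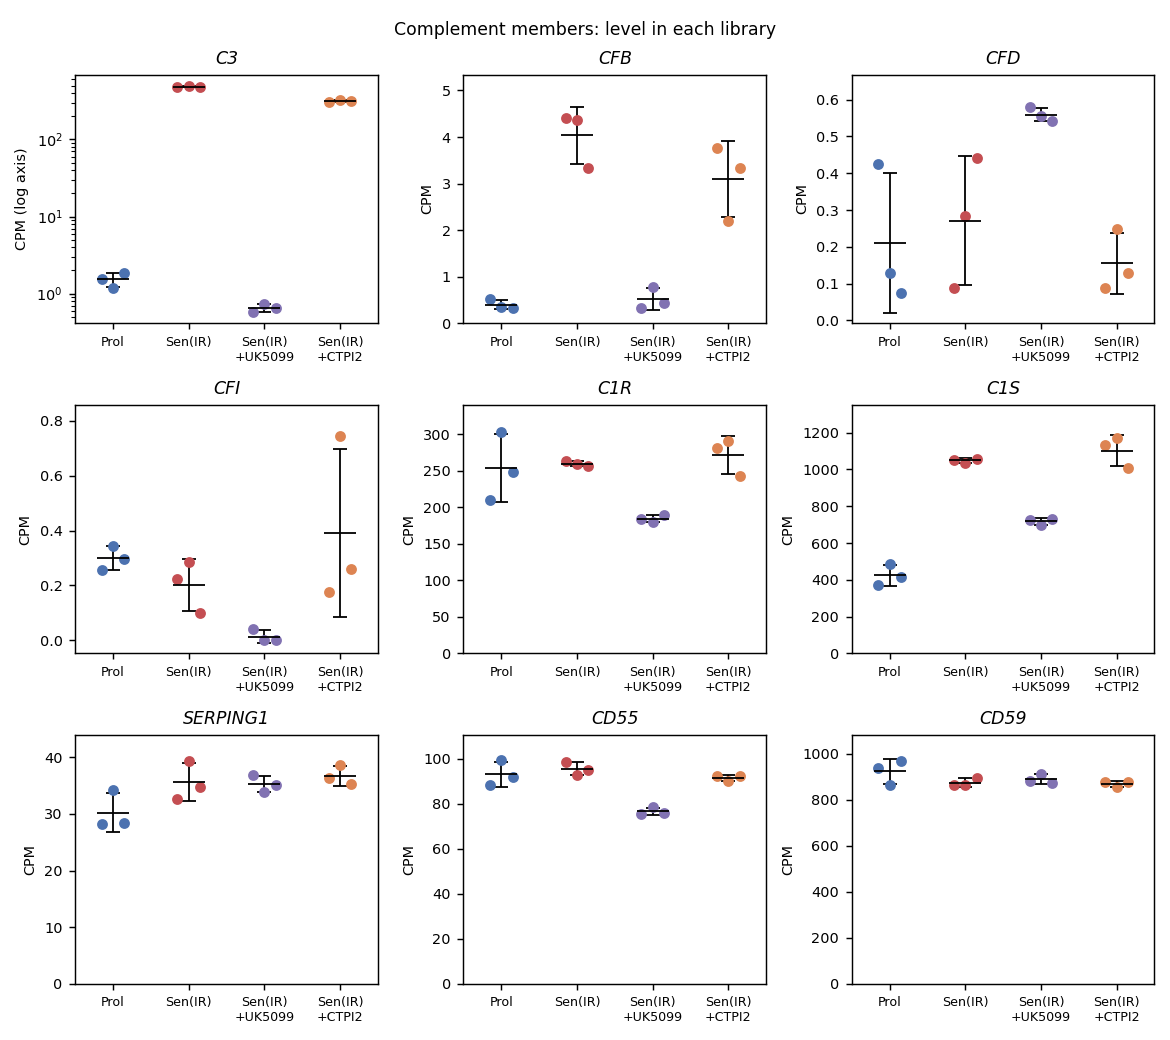
Level of each of the 9 complement members in each of the 12 libraries, in CPM, by group. Points are libraries (replicates 1 to 3 from left to right), black bars the mean ± SD of 3, and the C3 axis is logarithmic while the others are linear. C3 sits at 475 to 496 CPM in Sen(IR) and at 0.580 to 0.742 CPM in Sen(IR)+UK5099, while CD59 stays between 854 and 968 CPM in all groups.

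C3 (ENSG00000125730, chromosome 19, 6677704 to 6730562, minus strand) encodes the protein on which all complement pathways converge. Its level was 1.54, 1.20 and 1.86 CPM in the 3 Prol libraries, from 36, 28 and 50 reads. In Sen(IR) it was 480, 496 and 475 CPM, from 10793, 10455 and 9691 reads. These groups were far apart, and C3 ranked number 8 of the 16251 tested genes by rise, with a log2 fold change of 8.28 (edgeR adjusted p = 1.81e-25, SE 0.087, 312-fold).

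With UK5099 the C3 level was 0.580, 0.742 and 0.659 CPM, from 14, 20 and 17 reads. No UK5099 library overlapped Sen(IR), and all 3 lay below the lowest Prol library. The log2 fold change against Sen(IR) was -9.50 (edgeR adjusted p = 8.87e-26, SE 0.096), the fourth lowest of all tested genes, and the mean was 0.136% of that in Sen(IR). Against Prol, C3 fell by 1.22 on the log2 scale (edgeR adjusted p = 9.49e-06, SE 0.20), to 43.1% of the Prol mean.

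With CTPI2 C3 read 306, 324 and 320 CPM in replicates 1 to 3, every library below the lowest of Sen(IR) and far above the highest of Prol. The log2 fold change against Sen(IR) was -0.61 (edgeR adjusted p = 4.1e-07, SE 0.052), which left 65.4% of the Sen(IR) mean. Between the inhibitors C3 was lower with UK5099 by a log2 fold change of -8.89 (edgeR adjusted p = 4.13e-25, SE 0.097). Of the exonic bases of C3, 11.7% are shared with a long noncoding RNA on the same strand (ENSG00000276980), which had 21 to 26 counts per library in Sen(IR), 15 to 23 with CTPI2 and 0 in every Prol and UK5099 library.

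CFB (ENSG00000243649, chromosome 6, 31945650 to 31952086, plus strand) encodes factor B, the protease subunit of the alternative pathway C3 convertase. The 3 Prol libraries held 0.512, 0.343 and 0.335 CPM (12, 8 and 9 reads). In Sen(IR) the values were 4.40, 4.36 and 3.33 CPM (99, 92 and 68 reads), with no overlap. The log2 fold change was 3.34 (edgeR adjusted p = 2.28e-09, SE 0.31, 10.1-fold), which placed CFB at rank 287 by rise.

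With UK5099 the CFB libraries overlapped those of Prol, at 0.331, 0.779 and 0.426 CPM (8, 21 and 11 reads). Against Sen(IR) the log2 fold change was -2.95 (edgeR adjusted p = 2.53e-08, SE 0.29). Against Prol it was 0.39 (edgeR adjusted p = 0.406, SE 0.42), an interval of ± 2 SE from -0.44 to 1.22, and its sign turned without the second UK5099 library (-0.052). With CTPI2 CFB read 3.77, 2.19 and 3.33 CPM, overlapping Sen(IR), and the log2 fold change of -0.39 (edgeR adjusted p = 0.795, SE 0.23, ± 2 SE from -0.84 to 0.071) did not pass. UK5099 was lower than CTPI2 by a log2 fold change of -2.56 (edgeR adjusted p = 3.4e-07, SE 0.30). CFB is the member with the most shared exonic bases, 42.8%, through a C2-CFB read-through transcript (ENSG00000244255, 0 to 4 counts per library) and the neighbouring gene C2, which had 14 to 29 counts in every library.

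CFD (ENSG00000197766, chromosome 19, 859453 to 867884, plus strand) encodes factor D, which cleaves factor B. It was near the limit of detection, with 10, 3 and 2 reads in the Prol libraries, 2, 6 and 9 in Sen(IR), 14, 15 and 14 in Sen(IR)+UK5099 and 2, 6 and 3 in Sen(IR)+CTPI2. The UK5099 libraries (0.543 to 0.580 CPM) lay above all 9 others (0.074 to 0.441 CPM). Because CFD passed the filter only through that group, its higher level there is partly built into its being tested. Against Sen(IR) the log2 fold change of 1.05 (edgeR adjusted p = 0.126, SE 0.55) did not pass. Against Prol it was 1.42 (edgeR adjusted p = 0.0265, SE 0.56), not past the threshold without Prol replicate 2 (adjusted p = 0.0863 in edgeR) or 3 (0.135) or without UK5099 replicate 1 (0.0527).

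CFI (ENSG00000205403, chromosome 4, 109731008 to 109802150, minus strand) encodes factor I, the plasma protease that cleaves C3b. It had 6, 8 and 8 reads in the Prol libraries, 5, 6 and 2 in Sen(IR), 1, 0 and 0 in Sen(IR)+UK5099 and 4, 18 and 6 in Sen(IR)+CTPI2. The 0 reads of the last 2 UK5099 libraries allow up to 0.111 and 0.116 CPM (3 counts each), and no UK5099 library overlapped another group, while the other 3 groups overlapped each other. The summed reads, 13 in Sen(IR) and 1 with UK5099, gave a ratio per library size of 15.6 with an exact 95% interval of 2.35 to 664 that covers counting error only. The ratio of CTPI2 to Sen(IR), 1.96 (0.985 to 4.13), rested on the second CTPI2 library with its 18 reads. When no filter on low counts was applied, CFI was the 1 member added to those called lower with UK5099 against Sen(IR), against CTPI2 and against Prol. Another protein-coding gene on the same strand shares 29.4% of its exonic bases.

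**Figure D2:**
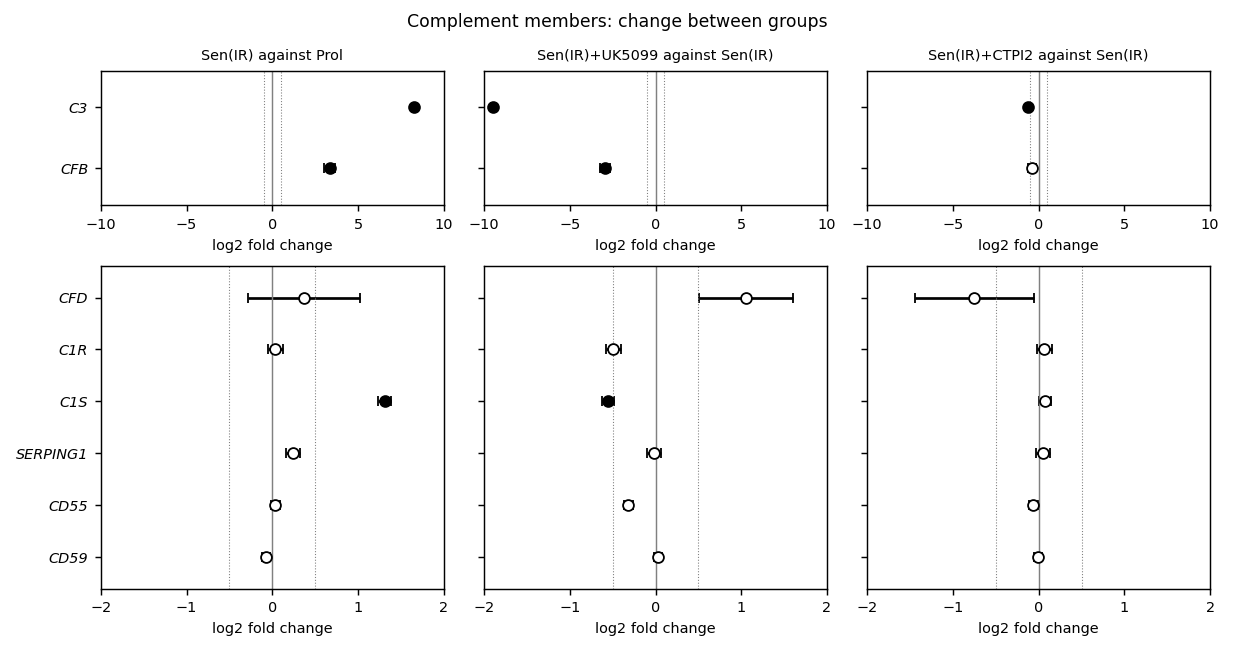
Log2 fold change of the 8 tested members in 3 comparisons. Points are edgeR estimates, bars ± 1 SE, filled points genes called (adjusted p under 0.05 and past the dotted lines at a log2 fold change of 0.5 in size), and the upper row (C3 and CFB) has a wider axis than the lower. C3 moves by 8.28, -9.50 and -0.61 and CD59 by no more than 0.077 in size.

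C1S (ENSG00000182326, chromosome 12, 6988259 to 7071032, plus strand) encodes the C1 protease that cleaves C4 and C2. It was already abundant in Prol, at 370, 484 and 418 CPM, above 97.7% of tested genes. In Sen(IR) it reached 1053, 1036 and 1058 CPM, with no overlap, a log2 fold change of 1.31 (edgeR adjusted p = 2.22e-13, SE 0.071, 2.48-fold). With UK5099 it was 723, 698 and 730 CPM, between both of those groups and overlapping neither.

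The log2 fold change of C1S with UK5099 was -0.55 (edgeR adjusted p = 1.12e-06, SE 0.070) against Sen(IR) and 0.76 (edgeR adjusted p = 1.96e-09, SE 0.071) against Prol. Of the members called higher in Sen(IR), C1S was the 1 that was still called higher than Prol with UK5099. CTPI2 libraries read 1133, 1168 and 1006 CPM and overlapped Sen(IR), with a log2 fold change of 0.072 (edgeR adjusted p = 0.916, SE 0.070, ± 2 SE from -0.068 to 0.21).

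C1R (ENSG00000159403, chromosome 12, 7080214 to 7092540, minus strand) encodes the protease that activates C1s and lies beside C1S in the opposite orientation. Its 3 Prol libraries spread widely, at 210, 303 and 248 CPM, and the second of them was also the highest for C1S, SERPING1 and CD55. The Sen(IR) libraries, at 263, 259 and 257 CPM, fell inside that range. The log2 fold change was 0.032 (edgeR adjusted p = 0.753, SE 0.087, ± 2 SE from -0.14 to 0.21) and turned to -0.087 without Prol replicate 1.

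With UK5099 C1R was 184, 180 and 189 CPM, below every library of the other 3 groups. The log2 fold change of -0.49 against Sen(IR) (edgeR adjusted p = 7.57e-05, SE 0.087) stood just under the limit of 0.5 and passed it without Sen(IR) replicate 3 (-0.50) or UK5099 replicate 3 (-0.51) or when the fit held only the 2 groups compared (-0.50). Against Prol the log2 fold change was -0.46 (edgeR adjusted p = 6.19e-05, SE 0.087), which passed the limit without Prol replicate 1 (-0.58). With CTPI2 it was 282, 290 and 242 CPM, and the log2 fold change of 0.064 (edgeR adjusted p = 0.942, SE 0.087, ± 2 SE from -0.11 to 0.24) did not pass. C1R shares 11.6% of its exonic bases with C1RL on the same strand, which had 497 to 792 counts in Prol and 1090 to 1422 in the irradiated groups.

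The reads of C1S relative to those of C1R separated Prol from every irradiated group. The ratio was 1.76, 1.60 and 1.68 in the Prol libraries, although C1R itself varied most there. It was 4.01, 4.0 and 4.13 in Sen(IR), 3.92, 3.89 and 3.87 in Sen(IR)+UK5099 and 4.03, 4.02 and 4.16 in Sen(IR)+CTPI2. Per kb of exon the mean ratio was 1.18 ± 0.059 (SD, n = 3) in Prol and 2.83 ± 0.049 (SD, n = 3) in Sen(IR).

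The log2 ratio of C1S to C1R was higher in Sen(IR) than in Prol by 1.27 (SE 0.044), and no library left out moved this outside 1.23 to 1.30. With UK5099 it was lower than in Sen(IR) by 0.055 on the log2 scale, 0.962 times, with no overlap, which is the gap between the log2 fold changes of C1S (-0.55) and C1R (-0.49). Over 5 comparisons of the ratio, the 4 without overlap each had an exact two-sided permutation p of 0.1, which is the smallest that 3 against 3 allow (0.125 adjusted over the 5), and that of CTPI2 against Sen(IR) had an exact permutation p of 0.5. Of the reads of both genes, C1S took 61.5% (Wilson 95% interval 60.8 to 62.2) in the lowest Prol library and 80.6% (80.1 to 81.1) in the highest CTPI2 library, and these intervals cover counting error only.

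**Figure D3:**
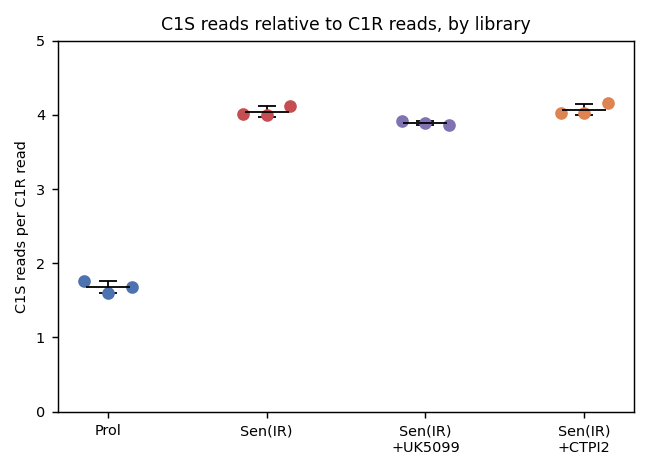
C1S reads per C1R read in each library, by group. Points are libraries (replicates 1 to 3 from left to right) and black bars the mean ± SD of 3. Prol libraries lie at 1.60 to 1.76 and all 9 irradiated libraries at 3.87 to 4.16.

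SERPING1 (ENSG00000149131, chromosome 11, 57597387 to 57619171, plus strand) encodes C1 inhibitor, which inactivates C1r and C1s. It was 28.1, 34.3 and 28.3 CPM in Prol and 32.7, 39.3 and 34.8 CPM in Sen(IR). The second Prol library overlapped Sen(IR), and the log2 fold change of 0.24 (edgeR adjusted p = 0.0146, SE 0.082) passed the test but not the limit of 0.5. UK5099 libraries (33.9 to 36.9 CPM) and CTPI2 libraries (35.2 to 38.7 CPM) overlapped Sen(IR), with log2 fold changes of -0.013 (± 2 SE from -0.18 to 0.15) and 0.047 (-0.12 to 0.21). Libraries of all 3 irradiated groups overlapped, and the UK5099 value changed sign under upper-quartile scaling (0.0058).

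CD55 (ENSG00000196352, chromosome 1, 207321519 to 207386804, plus strand) encodes decay-accelerating factor, which takes apart C3 convertases on the cell surface. It was 88.4, 99.3 and 91.7 CPM in Prol and 98.5, 92.9 and 94.9 CPM in Sen(IR), which overlapped, with a log2 fold change of 0.036 (edgeR adjusted p = 0.565, SE 0.054). With UK5099 it was 75.5, 78.4 and 76.0 CPM, below all libraries of the other groups. That difference from Sen(IR), a log2 fold change of -0.32 (edgeR adjusted p = 4.59e-05, SE 0.054), passed the test and not the limit of 0.5. CTPI2 libraries read 92.5, 90.1 and 92.2 CPM, just below the lowest of Sen(IR), with a log2 fold change of -0.060 (edgeR adjusted p = 0.902, SE 0.054).

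CD59 (ENSG00000085063, chromosome 11, 33703010 to 33736479, minus strand) encodes protectin, which blocks assembly of the membrane attack complex. It was the most even member, at 937, 862 and 968 CPM in Prol, 865, 863 and 896 CPM in Sen(IR), 883, 913 and 873 under UK5099 and 878, 854 and 876 under CTPI2. All groups overlapped. Its log2 fold change from Prol to Sen(IR) was -0.077 (edgeR adjusted p = 0.158, SE 0.048, ± 2 SE from -0.17 to 0.019) and it turned to 0.044 under upper-quartile scaling, which moved the median of all genes to 0.14. With UK5099 and CTPI2 the log2 fold changes against Sen(IR) were 0.025 and -0.0085.

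Between the inhibitors, C3, CFB, C1S and C1R, 4 of the 8 tested members, were called lower under UK5099 than under CTPI2, beside 11.7% of all tested genes. C1S differed by a log2 fold change of -0.62 (edgeR adjusted p = 2.2e-07, SE 0.070) and C1R by -0.56 (edgeR adjusted p = 1.9e-05, SE 0.087). Leaving out CFD, 0 members were called higher, beside 8.20% of all tested genes. CFD, which entered the test only through its UK5099 libraries, had a log2 fold change of 1.80 (edgeR adjusted p = 0.0173, SE 0.59), past the threshold except without CTPI2 replicate 1 (adjusted p = 0.0711 in edgeR) or 3 (0.0535). The doses of UK5099 and CTPI2 differ, so these are differences between the treatments as given. Against Prol, with CFD again not counted, UK5099-treated cells had 1 member called higher (C1S), beside 26.9% of all tested genes, and 1 called lower (C3), beside 26.2%.

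Levels were compared between members per kb of exon (the union of GENCODE v44 exons). In Prol CD59 led at 87.4 ± 5.15 CPM per kb (SD, n = 3), followed by C1S (51.1) and C1R (43.7), whose libraries overlapped. CD55 (9.08) and SERPING1 (4.18) came next, and C3 (0.13), CFD (0.12), CFB (0.075) and CFI (0.056) ended the order without a gap between neighbours. In Sen(IR) C1S led at 126 ± 1.42, ahead of CD59 (82.8), C1R (44.7) and C3 (41.8), and no neighbours among the first 8 overlapped. C3 was the sixth member in Prol and the fourth in Sen(IR), next to C1R. By CPM alone C3 (484) stood above C1R (259) in Sen(IR), so the order of these members depends on the exon lengths used. The overlap of libraries does not cover that dependence.

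With CTPI2 the order of the first 8 was that of Sen(IR), with C3 at 27.3 ± 0.818 CPM per kb (SD, n = 3). With UK5099 C1S (86.4) and CD59 (84.3) overlapped at the head, C1R (31.7), CD55 (7.47) and SERPING1 (4.88) followed, and C3 (0.057) was the eighth, below CFD (0.31) and overlapping CFB (0.096). UK5099 libraries held C1S, C1R, CD55 and CD59 at 1823 reads or more in each library, with 8 to 21 reads for C3 and CFB.

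**Figure D4:**
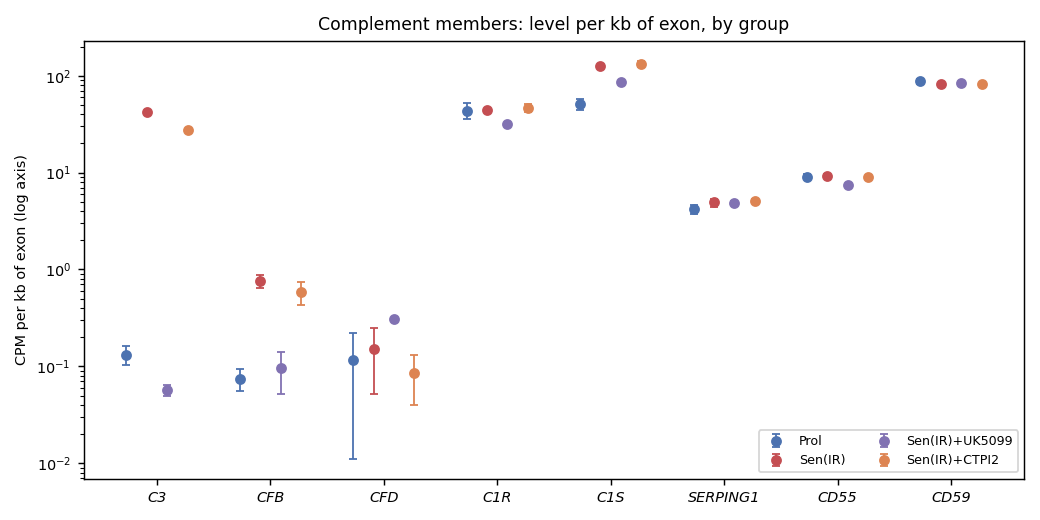
Mean level of 8 complement members per kb of exon (CPM per kb, logarithmic axis) in the 4 groups, with bars of ± 1 SD over 3 libraries. CFI, with libraries at 0 reads, is left out. C3 spans 0.057 to 41.8 CPM per kb between Sen(IR)+UK5099 and Sen(IR), and CD59 82.3 to 87.4.

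Likeness to each member was measured as the root mean square distance of centred log2 CPM over the 12 libraries, among 12136 genes with a mean log2 CPM over 1. Nearest to C3 were CXCL10 (0.64), TNFSF18 (0.70) and CXCL8 (0.75), set against a spread of C3 about its own mean of 4.27. CXCL10 and CXCL8 encode chemokines and TNFSF18 a TNF family ligand. Nearest to CFB (spread 1.43) were NAMPT (0.31), ZC3H12A (0.35) and SCG2 (0.36). Nearest to C1S (spread 0.56) were DDX58 (0.093), which encodes the RNA sensor RIG-I, PLA2G4A (0.094) and PLD1 (0.10). C1R, SERPING1, CD55 and CD59 varied little, with spreads of 0.052 to 0.25. Nearest to C1R were GOSR2, TP53RK and LINC00475 (0.10 to 0.11). Nearest to SERPING1 were UVRAG, ENSG00000125354 and KDM5B (0.061 to 0.071). Nearest to CD55 were OGFOD1, LRIG3 and SUMF2 (0.046 to 0.049), and to CD59 PPP2CB, RAB14 and C8orf33 (0.023 to 0.040). CFD (spread 0.78) had MEGF6 (0.45), ANKDD1A (0.50) and CELSR2 (0.50) as its nearest. The distances describe these 12 libraries, which share their 4 groups, and say nothing of shared control.

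A list of 51 other complement genes was set beside the members, of which 20 were tested. The other 31 had at most 14 reads in any library, and 9 of them had none. In Sen(IR) against Prol 8 of the 20 were called higher, beside 24.8% of all tested genes, and 4 lower, beside 22.4%. With UK5099 against Sen(IR) 2 were called higher, beside 8.76% of all tested genes, and 7 lower, beside 12.1%. Among those called lower, C9, C6 and C3AR1 had at most 6 reads in any UK5099 library and passed the filter through other groups. C9, also called higher in Sen(IR), had at most 6 reads in Prol. These calls are therefore partly built into the genes being tested. The rest called lower with UK5099 were C7, COLEC10, PTX3 and VTN. The counts by role below rest on 1 to 5 tested genes each and are read against the same shares. With CTPI2 against Sen(IR) edgeR and DESeq2 each called 0, and 3 genes (C5AR1, CD46 and CLU) had an unadjusted edgeR p under 0.05. The medians of the 3 comparisons were 0.37, -0.43 and -0.0031 on the log2 scale.

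Of 4 tested genes listed under the classical pathway, 2 were called higher in Sen(IR), C1RL and C4A. C1RL encodes a C1r-like protease and is not among the steps of this pathway named above. It was 26.9 ± 6.52 CPM in Prol and 56.1 ± 2.66 CPM in Sen(IR) (SD, n = 3). C4A was 0.215 to 0.554 and 0.934 to 1.04 CPM, and it shares near-identical sequence with C4B so that its count is uncertain. C4B was not called in Sen(IR) against Prol (log2 fold change 0.81, edgeR adjusted p = 0.0986). None of the 4 was called with UK5099 against Sen(IR), where all 4 log2 fold changes were below 0. That of C4A was -0.60 (edgeR adjusted p = 0.185) and that of C4B was -1.06 (edgeR adjusted p = 0.0542). Among 5 tested lectin pathway genes, COLEC10 and COLEC12, which encode collectins, were called lower in Sen(IR). COLEC10 went from 69.4 ± 3.79 to 47.2 ± 1.88 CPM and to 11.8 ± 1.15 CPM with UK5099 (SD, n = 3), a log2 fold change of -2.0 (edgeR adjusted p = 1.97e-15, SE 0.076). The lectin pathway protease gene MASP1, at 127 to 198 CPM in Prol, was not called in any of these comparisons.

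Of 4 tested terminal components, which build the membrane attack complex, C7 and C9 were called higher in Sen(IR) and C5 lower. C9 had 2 to 6 reads per library in Prol and 5 to 28 in Sen(IR), and these groups overlapped. Only Sen(IR) and Sen(IR)+CTPI2 libraries held more than 6 reads of C9, so it passed the filter through those groups. C7 was 2.26 to 4.42 CPM in Prol, 6.41 to 6.77 in Sen(IR) and, when UK5099 was given, 1.78 to 2.36, which lay below Sen(IR) by 1.62 on the log2 scale (log2 fold change -1.62, edgeR adjusted p = 4.83e-07, SE 0.19). C5 was 8.54 ± 0.481 CPM in Prol and 4.90 ± 0.217 in Sen(IR) (SD, n = 3). C9 and C6, under 1.25 CPM in every library, were also called lower with UK5099, C9 not without Sen(IR) replicate 1 (adjusted p = 0.0781 in edgeR) and C6 in only 1 of 6 fits that each left out a library.

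Both tested soluble regulators of the list were called higher in Sen(IR): CLU, which encodes clusterin, at 198 ± 19.3 and 463 ± 2.61 CPM (SD, n = 3), and VTN, which encodes vitronectin, at 2.42 to 3.69 and 3.87 to 4.72 CPM. VTN lost its call without Prol replicate 3 or Sen(IR) replicate 1. With UK5099 CLU was higher still, at 797 ± 26.0 CPM (SD, n = 3), by a log2 fold change of 0.78 (edgeR adjusted p = 4.82e-10, SE 0.061). VTN was called lower with UK5099, at 2.03 to 3.26 CPM and without overlap, by a log2 fold change of -0.60 (edgeR adjusted p = 0.0152, SE 0.19), a call lost in 2 of 6 fits that each left out a library, those without Sen(IR) replicate 1 or UK5099 replicate 1.

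CD46, the membrane cofactor of factor I and the 1 tested membrane regulator of the list, rose from 220 ± 9.13 to 586 ± 10.7 CPM in Sen(IR) (SD, n = 3), a log2 fold change of 1.42 (edgeR adjusted p = 3.69e-17, SE 0.047), and stayed at 529 ± 12.9 CPM with UK5099. The members CD55 and CD59 had log2 fold changes of 0.036 and -0.077 from Prol to Sen(IR). PTX3, a pentraxin that binds C1q, rose from 164 ± 11.5 to 396 ± 3.73 CPM, was 388 ± 4.63 CPM with CTPI2, and fell to 20.5 ± 2.66 CPM with UK5099 (SD, n = 3), a log2 fold change of -4.27 (edgeR adjusted p = 1.78e-21, SE 0.075). Among the receptors C1QBP, which encodes a C1q-binding protein of mitochondria, fell from 142 ± 10.3 to 69.6 ± 0.512 CPM in Sen(IR) (SD, n = 3). C5AR1 was 0.595 to 1.19 CPM in Prol, 0.834 to 1.80 in Sen(IR) and 2.09 to 2.52 with UK5099. Against Sen(IR), C5AR1 was called higher and C3AR1 (at most 0.569 CPM) lower with UK5099. Each lost that call in fits without a library (2 and 3 of 6).

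**Figure D5:**
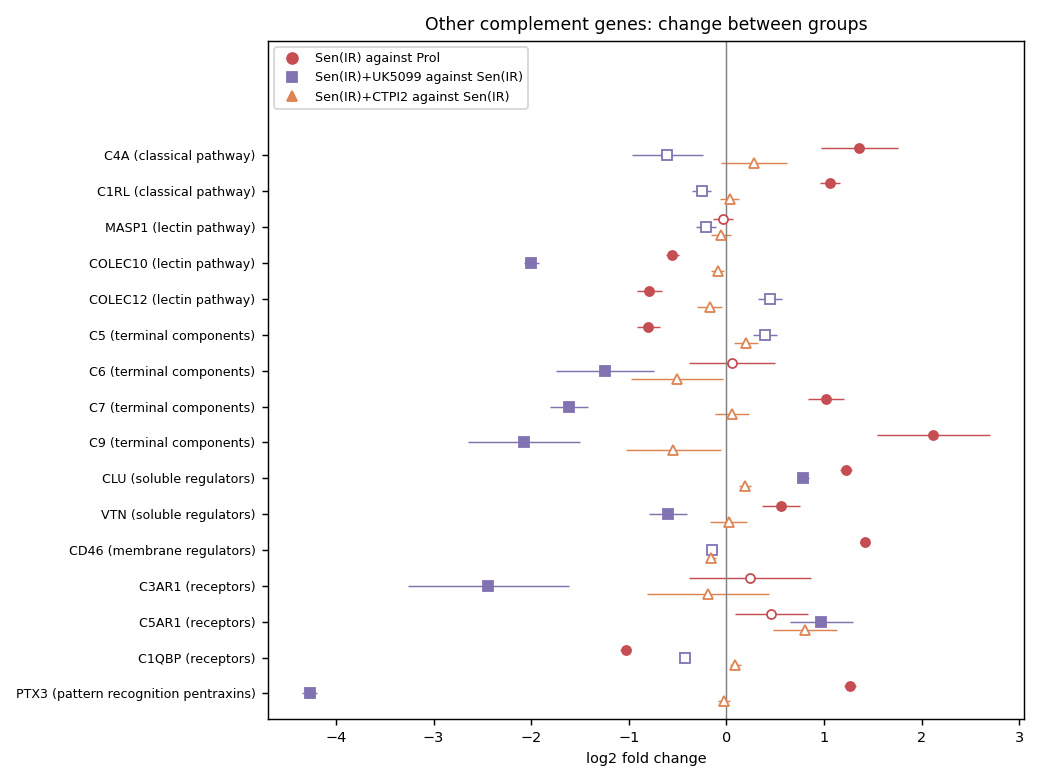
Log2 fold change of 16 other complement genes, with the role of each in brackets, in 3 comparisons. Points are edgeR estimates, bars ± 1 SE and filled points genes called. PTX3 lies at -4.27 with UK5099, CLU at 0.78, and no gene is called with CTPI2.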

How the data were processed

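RNA from 12 MRC5 libraries (4 groups of 3, mapped by the sample titles) was analysed. The deposited values are raw counts per gene: per the submitters' processing notes and the study's methods, the authors used Trimmomatic 0.36 for trimming, STAR 2.5.2b for alignment (GRCh38) and featureCounts (Subread 1.5.2) to count uniquely assigned reads over the exons of each gene. Whether counting used strand is not given in the sources used here. Counts were fitted with edgeR 4.0.16 (R 4.3.3) on all 12 libraries after filterByExpr and TMM scaling, with quasi-likelihood tests, Benjamini-Hochberg adjustment over 16251 genes, and a call at adjusted p under 0.05 and a log2 fold change over 0.5 in size. The study used DESeq2 with a limit of 0.5 and an unadjusted p, and DESeq2 1.42.0 is an alternative here. The SE is the log2 fold change divided by the square root of its F statistic. CPM per kb used GENCODE v44 exon lengths, and intervals came from scipy 1.17.1. The tests were also run on simulated counts with a single common spread and few changed genes. That setting is simpler than these data and does not check the tests at their spread. No columns of other samples were used.

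All 9 members are named. Other complement genes are named where called in a comparison with Sen(IR) or at 10 CPM or more in any group, plus the 3 genes most like each member and the check genes. Of the list first drawn up, 1 gene is not reported here, and list counts leave it out. The members and lists were chosen with earlier results of these data known. No replicate columns were identical or within sampling noise of each other (2.25 to 12.9 chi-square per gene). Alternatives were other scalings, filters, fold limits, DESeq2, a replicate block, 2-group fits and leaving out each library. Batches are not labelled.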

Additional observations from a re-analysis of the deposited data

How the results depend on the processing

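The calls of C3, CFB and C1S in Sen(IR) against Prol and against UK5099 held under DESeq2, under relative log expression and upper-quartile scaling, without a filter, with a replicate block and without any library, except that C1S with UK5099 was under a log2 fold change limit of 1. Counts of members here include CFD where UK5099 was set against Prol or CTPI2. Those of the other genes include C9, C6 and C3AR1. Counts moved with that limit: without it 5 members were called with UK5099 against Sen(IR) (3 with it) and 6 in UK5099 against Prol (3), and with a limit of 1 there were 0 in CTPI2 against Sen(IR) (1) and 3 between the inhibitors (5). For the 51 other genes, dropping the limit gave 14 (9) with UK5099 against Sen(IR), a limit of 1 gave 6 (11) between the inhibitors, and an unadjusted p gave 1 (0) with CTPI2, C5AR1. Leaving out single libraries gave 5 to 9 and 6 to 10 of these genes in the first and second of those, the lowest without Sen(IR) replicate 1 and UK5099 replicate 1, and 7 to 11 (11) in UK5099 against Prol, the lowest without Prol replicate 2. No pairing of libraries by replicate number was detected, which does not exclude one. Deviations of same-numbered libraries correlated at -0.051 to 0.042, and 5 of 12 libraries correlated best with their own number. With the replicate block the members called were still 3, 3, 1, 5 and 3 in the 5 comparisons, all of them shared. Of the other genes C6 lost its call with UK5099 (edgeR adjusted p = 0.0667) and C4A its call between the inhibitors.

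Signs turned only for values that were not called. Upper-quartile scaling, which moved the median of all genes to 0.14 in Sen(IR) and 0.15 in UK5099 against Prol, gave log2 fold changes of 0.044 (CD59) and 0.086 (MASP1) in Sen(IR) against Prol, 0.0058 (SERPING1) with UK5099 against Sen(IR) and 0.088 (CD59) in UK5099 against Prol. Without single libraries, values in Sen(IR) against Prol ran from -0.087 to 0.18 for C1R, -0.15 to 1.37 for CFD, -0.15 to 0.19 for MASP1, -0.31 to 0.31 for C6 and -0.26 to 0.75 for C3AR1, those with UK5099 from -0.072 to 0.064 for SERPING1 and, against Prol, from -0.052 to 0.61 for CFB. With CTPI2 against Sen(IR) they ran from -0.012 to 0.12 for SERPING1, -0.018 to 0.0092 for CD59, -0.0021 to 0.079 for C1RL, -0.048 to 0.16 for C7, -0.96 to 0.12 for C9, -0.059 to 0.098 for VTN and -0.55 to 0.23 for C3AR1. The cause was not tested. Depth limits CFI and CFD, with at most 18 and 15 reads in any library, and CFB and C3 in Prol and UK5099 libraries.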
